A study of Mus musculus with 33 samples.

Results

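RNA of LSK cells, the fraction of mouse bone marrow that holds the blood stem cells, was compared with RNA of lineage-negative (Lin-) cells, with 3 sequencing libraries in each group. Both groups came from the femur and tibia of untreated wildtype C57BL/6 mice of 8 to 12 weeks of age. LSK stands for Lin- Sca1+ cKit+, so these cells lack lineage antigens and carry the surface proteins Sca1 and cKit, whereas the Lin- cells were labelled only by the lack of lineage antigens. Bone was crushed and digested with collagenase IV before sorting, per the labels' protocols. The labels do not say whether libraries of a group came from separate animals, so p-values measure only the spread between these libraries.

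The genes described are those with a mean of 5 FPKM or more over the 6 libraries, which were 7895 of 38899 genes in the deposited table. FPKM, a count of fragments divided by gene length and by a scaling total of each library, is a level that can be compared between genes. At the edge of that choice, 4732465J04Rik stood just inside with a mean of 5.0003 FPKM and Cds2 just outside with 4.9995 FPKM. The groups were also prepared with different kits: LSK libraries with SMART-Seq v4 and Nextera XT, which copies RNA from its poly(A) tail, and Lin- libraries with TruSeq Stranded Total RNA, which does not need a tail. Kit and cell population therefore cannot be told apart in any difference between the groups. Levels in 2 more groups of the same table, 3 libraries each, are given beside the results without a test. BMC is whole bone marrow of untreated wildtype C57BL/6 mice of the same ages and was prepared with the kit of Lin-. Bone EC is the GFP+ cells of untreated Cdh5-mTnG mice (an endothelial reporter, same strain and ages) and was prepared with the kit of LSK.

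LSK cells contain the long-term blood stem cells and the multipotent progenitors that arise from them, and they lie upstream of the committed progenitors of the red cell, platelet, myeloid and lymphoid lines. Lin- cells include LSK cells, the more numerous committed progenitors, and any bone cell that lineage antibodies do not bind, such as cells of the stroma, cartilage and bone. Stem cell identity rests on a small set of transcription factors and cytokine receptors, among them cKit and Flt3.

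The LSK libraries were shallower and listed more genes than the Lin- libraries. The values were whole multiples of what 1 read is worth, which gave 1550705, 1874374 and 1715996 reads on genes in LSK and 6403499, 5493733 and 5300401 in Lin-. Genes at 1 FPKM or more numbered 18109, 15205 and 14925 in LSK and 11509 to 12009 in Lin-. Across genes, on log2(FPKM + 1), Pearson's r was 0.96 to 0.961 between LSK libraries and 0.977 between Lin- 1 and Lin- 2. Lin- 3 stood apart, with r of 0.897 and 0.894 to the other Lin- libraries, and its erythroid genes summed to 93131 FPKM against 2819 and 2908. Results that rest on Lin- 3 are therefore also given without it. Genes of odorant and vomeronasal receptors, which blood cells are not known for, took 0.154%, 0.0953% and 0.0807% of the reads in LSK. Their share was 0.00091% to 0.00232% in Lin- and 0.000614% to 0.00121% in bone EC. Of 1421 such genes, 557 to 795 had a read in an LSK library and 14 to 24 in a Lin- library, and the part of this in other LSK values was not tested.

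Of the 7895 genes, 2111 were higher and 2560 lower in LSK, and 3216 did not pass the test (limma on log2(FPKM + 1), Benjamini-Hochberg adjusted p below 0.05). Over all 13875 genes tested, 33.4% were called higher and 25.5% lower, against 26.7% and 32.4% of the genes described here. The other 8 had at least 1 FPKM in fewer than 3 libraries and were not tested. Among the calls, 1402 genes were more than 2-fold higher and 1563 more than 2-fold lower by group means. The median log2 difference, LSK minus Lin-, was -0.12 over the genes described and 0.07 over all genes tested. A gene could enter through 1 group alone: 967 genes averaged under 5 FPKM in Lin- and 1015 under 5 FPKM in LSK, and such genes had to differ. The list counts below include such genes, so part of a list's direction can follow from this limit. Among the 5913 genes with both group means at 5 FPKM or more, 1260 were higher and 1721 lower.

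The balance of higher and lower calls depended on how libraries were scaled. The scaling total behind the deposited values was 1.415 to 1.477 times the reads recovered on genes in LSK. In Lin- that total was 0.875 to 1.066 times those reads. Of the calls among the genes described, 45.2% were higher in LSK on the deposited scale, 83.2% after rescaling each library to TPM (values of every library brought to the same sum) and 72.6% after rescaling to the reads recovered on genes. Those rescalings moved the median of all tested genes to 0.91 and 0.54. Differences on the deposited scale between -0.91 and 0 are thus the ones whose sign is least settled, and genes named below that were called and whose sign turned under TPM are marked. Of the genes called higher in LSK, 808 (38.3%) also had all 6 libraries of the LSK and bone EC kit above all 6 of the Lin- and BMC kit. Of those called lower, 1092 (42.7%) had them all below. For all tested genes these shares of the calls were 33.8% and 39.1%.

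**Figure D1:**
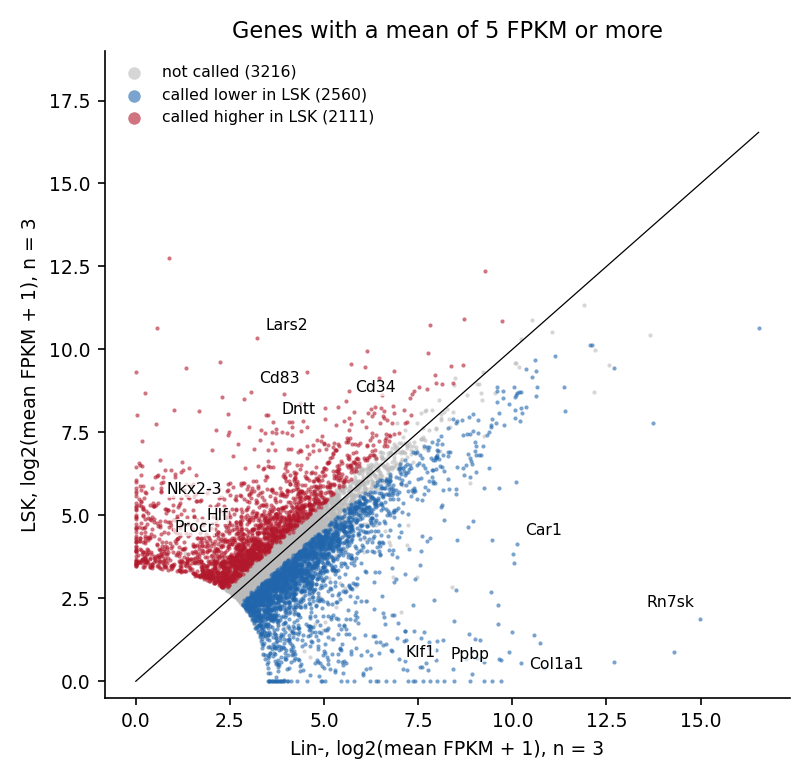
Mean level of each of the 7895 genes in Lin- (x axis) and LSK (y axis), as log2(mean FPKM + 1) of 3 libraries per group, with the line of equal levels. The 2111 genes called higher in LSK (red) lie above the line, the 2560 called lower (blue) below it, and 3216 were not called (grey); the arc near the origin is the limit of a mean of 5 FPKM.

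The labels of the sort were checked on the genes of its surface proteins. Ly6a, which encodes Sca1 (GRCm38 chr15:74994877-74998031), was at 82.6, 83.4 and 82.0 FPKM in LSK and 10.7, 8.64 and 8.95 FPKM in Lin-. Kit, the receptor of stem cell factor (chr5:75574916-75656722), was at 78.7, 104 and 88.4 FPKM in LSK and 53.1, 40.8 and 58.1 FPKM in Lin-. Neither gene's groups overlapped. The log2 difference was 3.01 ± 0.13 (SE) for Ly6a (limma adjusted p = 5.3e-06) and 0.83 ± 0.18 for Kit (limma adjusted p = 0.0063). Ptprc, which encodes the pan-leukocyte protein CD45, was at 30.8, 32.4 and 30.9 FPKM in LSK and 16.1, 11.7 and 11.9 FPKM in Lin-, a log2 difference of 1.20 ± 0.16 (limma adjusted p = 0.00055). Of 10 genes whose proteins lineage antibodies commonly bind, 1 reached a mean of 5 FPKM. The granulocyte gene Ly6g was at 0 in all Lin- libraries and at 1.3, 0 and 0 FPKM in LSK, against 382 FPKM in BMC on average. Itgam, which encodes CD11b of myeloid cells, was at 4.36 to 4.66 FPKM in LSK and 0.135 to 1.17 FPKM in Lin-, against 195 FPKM in BMC. Ly6a and Kit were thus higher in the group sorted for their proteins.

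Transcription factors of blood stem cells moved in both directions. Of 13 described genes of this list, 7 were higher and 3 lower in LSK, with a median log2 difference of 0.91 against 0.07 for all genes tested. Of all genes tested, 33.4% were called higher and 25.5% lower. Nkx2-3, a homeobox factor (chr19:43612325-43615892), was at 47.2, 39.0 and 36.1 FPKM in LSK and 0.902, 0.409 and 0.204 FPKM in Lin-. Hlf, a basic leucine zipper factor marking blood stem cells (chr11:90336536-90390895), was at 31.9, 30.2 and 30.1 FPKM in LSK and 2.04, 1.91 and 1.87 FPKM in Lin-. Both were low in each of the other groups, with means of 0.182 to 0.809 FPKM in BMC and bone EC. These groups hold other cells, and the part of the kit in these differences was not tested. Their log2 differences were 4.81 ± 0.21 (limma adjusted p = 5.7e-06) and 3.43 ± 0.13 (limma adjusted p = 3.1e-06). Meis1, a partner of Hox proteins, rose by 1.56 ± 0.18, Lmo2, a bridging factor of blood-forming complexes, by 1.55 ± 0.21, and Etv6, needed for stem cell survival in the marrow, by 1.44 ± 0.19 on the log2 scale. Gata2 and Erg rose by 0.91 each, with standard errors of 0.3 and 0.28.

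The 3 factors of that list that fell also act in the red cell and platelet lines. Tal1 was at 4.79, 4.7 and 5.08 FPKM in LSK and 47.9, 36.0 and 89.3 FPKM in Lin-. Gfi1b was at 5.25, 5.73 and 3.83 FPKM in LSK and 49.8, 37.5 and 63.7 FPKM in Lin-. Their log2 differences were -3.22 ± 0.31 (limma adjusted p = 0.00015) and -3.10 ± 0.23 (limma adjusted p = 4.8e-05), and Lyl1 differed by -2.20 ± 0.35. Fli1, Bcl11a and Runx1 did not pass the test, with log2 differences of 0.19, 0.18 and 0.09. Mecom, a regulator of long-term stem cells, missed the limit of a mean of 5 FPKM, with 4.03 to 5.37 FPKM in LSK and 0.347 to 0.692 FPKM in Lin-.

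Surface proteins of stem cells and multipotent progenitors were mostly higher in LSK. Of 18 described genes, 11 were higher and 3 lower, with a median log2 difference of 1.39. Procr, which encodes the stem cell marker EPCR (chr2:155751117-155755471), was at 36.8, 27.9 and 41.6 FPKM in LSK and 1.23, 0.68 and 0.319 FPKM in Lin-. Flt3, the cytokine receptor of multipotent and lymphoid-primed progenitors, was at 57.9, 58.9 and 61.7 FPKM in LSK and 8.7, 6.92 and 2.11 FPKM in Lin-. Cd34, a sialomucin of progenitors, was at 339, 351 and 358 FPKM in LSK and 72.9, 46.7 and 22.4 FPKM in Lin-. In all 3 genes the LSK libraries lay within a narrow range, while Lin- 3 was the lowest of the Lin- libraries. The log2 differences were 4.40 ± 0.24 for Procr (limma adjusted p = 1.5e-05), 3.28 ± 0.39 for Flt3 (limma adjusted p = 0.00039) and 3.01 ± 0.38 for Cd34 (limma adjusted p = 0.0005).

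Further members of that list rose. Eltd1, an adhesion G protein-coupled receptor, rose by 3.89 ± 0.36 on the log2 scale, and Cd27, a member of the TNF receptor family, by 2.95 ± 0.39. Cd48, which marks multipotent progenitors rather than the stem cells themselves, was at 58.0, 74.8 and 63.4 FPKM in LSK and 15.8 to 33.6 FPKM in Lin- (log2 difference 1.52 ± 0.27, limma adjusted p = 0.0022). Slamf1, which encodes the stem cell marker CD150 and averaged under 5 FPKM, went the other way, at 1.16, 1.27 and 0.363 FPKM in LSK and 2.37, 3.15 and 5.26 FPKM in Lin- (log2 difference -1.24 ± 0.3, limma adjusted p = 0.0094). The 3 described members that fell were Itga2b, the platelet integrin CD41, by 2.82 ± 0.19 on the log2 scale, Itga6 (-0.92 ± 0.18) and Cd9 (-0.55 ± 0.15, but 0.33 under TPM). Cxcr4, the receptor that holds stem cells in the marrow, did not pass the test (-0.40 ± 0.17, limma adjusted p = 0.085), and its difference was 0.49 under TPM.

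**Figure D2:**
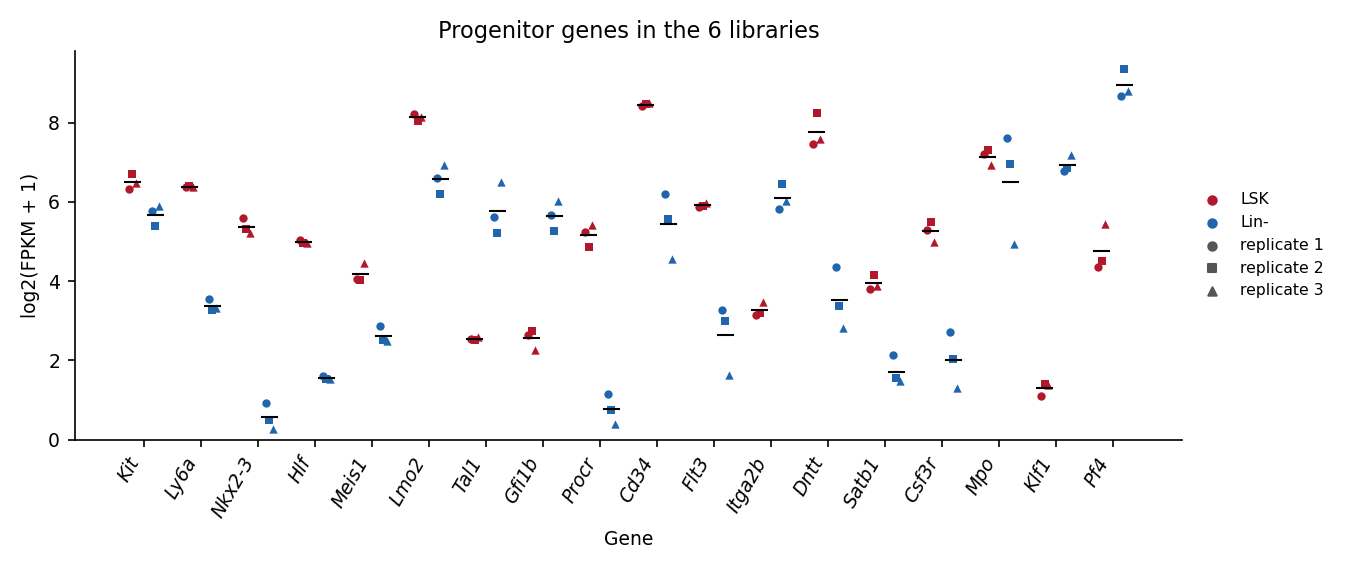
Level of 18 progenitor genes in each library as log2(FPKM + 1), LSK red and Lin- blue, with a symbol for each replicate and a bar at the mean of 3. Nkx2-3, Hlf, Procr, Flt3 and Dntt lie higher in all LSK libraries, Klf1, Pf4, Itga2b, Tal1 and Gfi1b lower, and Mpo overlaps.

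Genes linked to stem cell quiescence and retention moved in both directions. Of 11 described genes, 3 were higher and 4 lower in LSK, with a median log2 difference of 0.25. Over all genes tested, 33.4% were called higher and 25.5% lower, so these counts do not set the list apart. Without Lin- 3, and also under TPM, 5 were higher, with 4 and 2 lower. Cdkn1a, the cell cycle inhibitor p21, was at 240, 246 and 289 FPKM in LSK and 13.2, 11.1 and 5.63 FPKM in Lin-, against means of 18.5 FPKM in BMC and 69.8 FPKM in bone EC. Ifitm1, an interferon-induced membrane protein, was at 161, 169 and 210 FPKM in LSK and 20.2, 12.9 and 8.08 FPKM in Lin-. Angpt1, a ligand of the receptor Tie2, was at 74.8, 78.6 and 82.4 FPKM in LSK and 28.4, 19.1 and 25.6 FPKM in Lin-. These 3 differed by 4.63 ± 0.28, 3.70 ± 0.3 and 1.67 ± 0.17 on the log2 scale, with no overlap of the groups. The related inhibitors Cdkn1b and Cdkn1c did not move with Cdkn1a. Cdkn1b, which encodes p27, was lower, at 1.74 ± 0.661 FPKM in LSK and 11.8 ± 7.56 FPKM in Lin- (mean ± SD, n = 3, limma adjusted p = 0.0029), and Cdkn1c, which encodes p57, differed by 0.25 ± 0.36 (limma adjusted p = 0.58). Foxo3, a stress response factor of quiescent stem cells, was at 4.77 to 6.05 FPKM in LSK and at 27.9, 27.1 and 67.5 FPKM in Lin- (log2 difference -2.60 ± 0.34, limma adjusted p = 0.00058). Msi2 and Txnip differed by -0.73 ± 0.16 and -0.99 ± 0.24, and under TPM Msi2 turned to 0.07.

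Genes of lymphoid priming were higher in LSK in 7 of 9 described members and lower in 1, with a median log2 difference of 1.94. The shares over all genes tested were 33.4% higher and 25.5% lower. Dntt, the template-free DNA polymerase TdT of early lymphoid cells (chr19:41029275-41059525), was at 174, 302 and 191 FPKM in LSK and 19.4, 9.41 and 6.08 FPKM in Lin-. Satb1, a chromatin organizer, was at 12.9, 16.9 and 13.8 FPKM in LSK and 3.37, 1.92 and 1.8 FPKM in Lin-. The groups did not overlap in either gene, and the log2 differences were 4.24 ± 0.4 (limma adjusted p = 0.00014) and 2.23 ± 0.22 (limma adjusted p = 0.00017). Ikzf1, the lymphoid factor Ikaros, fell, from 59.8 to 67.4 FPKM in Lin- to 18.8 to 25.1 FPKM in LSK (log2 difference -1.51 ± 0.15, limma adjusted p = 0.00016). Of the B lymphoid list, which holds precursor as well as mature genes, only 3 genes reached 5 FPKM. Cd74 and Cd79b were higher and Ighm lower in LSK, and Ighm stood at 97.5 to 142 FPKM there against 1108 FPKM in BMC.

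Of 11 described genes of granulocyte and monocyte progenitors, 5 were higher and 2 lower in LSK, with a median log2 difference of 0.64. Over all genes tested, 33.4% were called higher and 25.5% lower, so these counts do little to set the list apart. Csf3r, the G-CSF receptor, was at 38.3, 44.0 and 30.8 FPKM in LSK and 5.56, 3.11 and 1.49 FPKM in Lin- (log2 difference 3.24 ± 0.34, limma adjusted p = 0.00023). Hk3 and Ctss rose by 1.69 ± 0.48 and 1.67 ± 0.32 on the log2 scale. Of the granule genes, Prtn3, proteinase 3, was higher in LSK (1.25 ± 0.45, limma adjusted p = 0.045), while Mpo, Elane and Ctsg did not pass the test. Their Lin- libraries spread widely, and Mpo was at 194, 122 and 29.7 FPKM in Lin- and 146, 156 and 120 FPKM in LSK. Without Lin- 3 the log2 difference of Mpo turned from 0.64 to -0.13, and Elane and Ctsg were called lower (-0.70 and -1.11). Cebpa, the master factor of granulocyte commitment, was lower in LSK, at 1.88 to 2.82 FPKM against 14.2, 6.95 and 9.41 FPKM in Lin- (log2 difference -1.76 ± 0.26, limma adjusted p = 0.001). Without Lin- 3, this list had 5 genes higher and 4 lower.

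Neutrophil genes were above Lin- in LSK, and monocyte and macrophage genes moved in both directions. All 5 described neutrophil genes were higher, with a median log2 difference of 3.25. Each averaged under 5 FPKM in Lin-, so they entered through LSK alone and had to differ. Over the whole list, 13 of 14 tested genes were higher in LSK and 1 was lower, against 33.4% and 25.5% of all genes tested. A gene could also reach the test through LSK alone, as Cd177 did (1.07 to 2.09 FPKM in LSK, 0 to 0.378 FPKM in Lin-). Part of this count can therefore follow from that filter. S100a8, an abundant neutrophil calcium-binding protein, was at 63.5, 47.9 and 109 FPKM in LSK and 1.87, 0.881 and 3.3 FPKM in Lin-, against 32896 FPKM in BMC and 18476 FPKM in bone EC. The neutrophil list summed to 232, 162 and 250 FPKM in LSK, 31.6, 25.8 and 16.5 FPKM in Lin- and 88558 to 118561 FPKM in BMC. Of 5 monocyte and macrophage genes, Cd14, Lyz2 and Cd68 were higher and F13a1 and Vcam1 lower in LSK. Cd14, the endotoxin co-receptor, was at 48.0, 50.3 and 52.9 FPKM in LSK and 4.66, 3.29 and 0.274 FPKM in Lin-. Among T and NK cell genes only Nkg7, a cytotoxic granule protein, averaged 5 FPKM or more, at 121, 137 and 143 FPKM in LSK and 28.0, 21.0 and 17.4 FPKM in Lin- (log2 difference 2.56 ± 0.19). The defining T cell genes Cd3e and Cd3d were at 0 to 1.52 FPKM in LSK and 0 to 0.601 FPKM in Lin-. Whether mature cells or their RNA contributed to these levels was not tested, and in bulk samples fewer cells of a type and less RNA per cell cannot be told apart.

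Antigen presentation genes rose in 15 of 18 described members, and 1 fell, with a median log2 difference of 1.36. Class II genes differed most. Cd74, the invariant chain, was at 102, 113 and 152 FPKM in LSK and 12.7, 10.5 and 12.5 FPKM in Lin- (log2 difference 3.24 ± 0.18). H2-Aa was at 29.1 ± 7.94 FPKM in LSK and 2.37 ± 0.552 FPKM in Lin- (mean ± SD, n = 3, log2 difference 3.13 ± 0.24). Class I genes rose less, as in H2-K1 at 611, 565 and 636 FPKM in LSK and 262, 284 and 189 FPKM in Lin- (log2 difference 1.32 ± 0.21), and B2m by 1.13 ± 0.23. Cd74 averaged 2382 FPKM in bone EC and 571 FPKM in BMC. The peptide transporter genes split, with Tap2 higher by 1.25 ± 0.2 and Tap1 at 0.06 ± 0.22 (limma adjusted p = 0.82). H2-Q4 fell (-1.02 ± 0.2) while its neighbour in the family H2-Q7 rose (2.04 ± 0.16), and reads of such near-identical class I genes cannot be assigned with certainty.

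Red cell genes were lower in LSK for the early members and uneven for the late ones, with 17 of 25 lower in LSK, none higher and a median log2 difference of -2.65. The factors and early genes of the line were high in all Lin- libraries. Klf1, the master factor of red cell genes (chr8:84901928-84905291), was at 1.14, 1.65 and 1.61 FPKM in LSK and 108, 115 and 143 FPKM in Lin-. Car1, a carbonic anhydrase of erythroid progenitors, was at 11.9, 21.4 and 16.8 FPKM in LSK and 1028, 1149 and 1182 FPKM in Lin-. Aqp1, a water channel, was at 2.66, 2.06 and 2.82 FPKM in LSK and 288, 250 and 513 FPKM in Lin-. The 3 genes were separated by far more than the spread in either group, with log2 differences of -5.64 ± 0.17 (limma adjusted p = 1.2e-06), -6.02 ± 0.22 (limma adjusted p = 2.7e-06) and -6.58 ± 0.27 (limma adjusted p = 4.2e-06). Gata1, the factor of red cells and platelets (chrX:7959260-7978071), was at 2.35 ± 1.02 FPKM in LSK (mean ± SD, n = 3) and 56.7, 48.8 and 70.1 FPKM in Lin- (log2 difference -4.19 ± 0.27). Epor, the erythropoietin receptor, fell by 3.88 ± 0.17 on the log2 scale.

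Late red cell genes behaved in another way. Hbb-bs, an adult beta globin, was at 1453, 1171 and 1524 FPKM in LSK and at 73.0, 83.4 and 38854 FPKM in Lin-. Alas2, the erythroid enzyme that starts heme synthesis (chrX:150547375-150570638), was at 62.4 ± 2.1 FPKM in LSK (mean ± SD, n = 3) and at 2.93, 2.66 and 1399 FPKM in Lin-. LSK libraries thus lay above Lin- 1 and Lin- 2 and below Lin- 3. With all 6 libraries, none of the 4 globin genes nor Alas2 passed the test (limma adjusted p = 0.41 to 0.81). Without Lin- 3 all 5 were called higher in LSK, by 3.48 ± 0.17 to 5.44 ± 0.19 on the log2 scale, and the list then had 5 genes higher and 19 lower. Slc4a1, the anion exchanger of the red cell membrane, was at 5.39 to 6.69 FPKM in LSK and 6.5, 6.7 and 997 FPKM in Lin-. The globins, Alas2 and Slc4a1 were singled out after their values were seen. Whole marrow averaged 7056 FPKM of Hbb-bs and 261 FPKM of Alas2, and reads of the near-identical globin copies cannot be assigned to 1 copy with certainty.

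**Figure D3:**
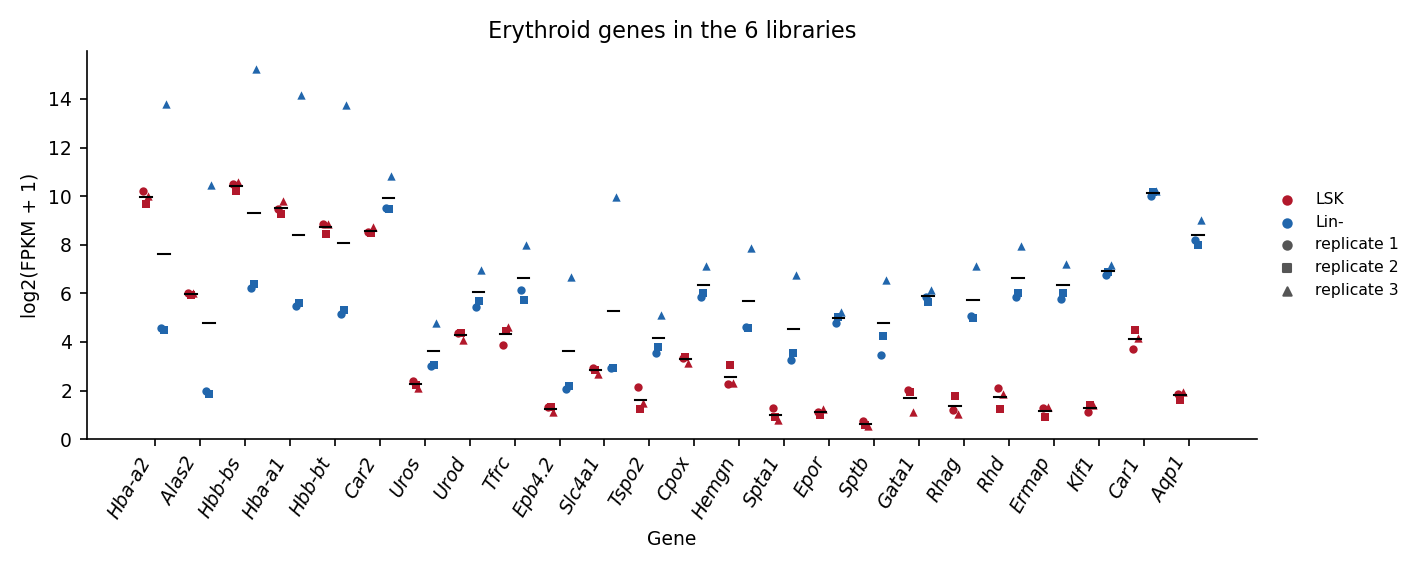
Level of 24 of the 25 erythroid genes in each library as log2(FPKM + 1), LSK red and Lin- blue, symbols by replicate and bars at the mean of 3, ordered by log2 difference. Lin- 3 (blue triangles) is the highest library for each gene, and for the 4 globin genes and Alas2 the LSK libraries lie between it and the other Lin- libraries, while Klf1, Car1 and Aqp1 separate in every library.

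Platelet-line genes fell together. Of 15 described megakaryocyte and platelet genes, 13 were lower and 1 higher in LSK, with a median log2 difference of -3.29, and without Lin- 3 the 13 lower calls stayed while Nrgn was no longer called (0.45 ± 0.17, limma adjusted p = 0.055). Ppbp, a platelet chemokine (chr5:90768518-90770063), was at 2.02, 1.34 and 0.763 FPKM in LSK and 180, 343 and 326 FPKM in Lin-. Pf4, platelet factor 4, was at 19.4, 21.6 and 42.2 FPKM in LSK and 403, 654 and 443 FPKM in Lin-. Tubb1, the tubulin of platelets, was at 0.932, 0.257 and 0.293 FPKM in LSK and 24.6, 50.9 and 54.8 FPKM in Lin-. Lin- 3 did not stand apart in these genes, and the log2 differences were -6.88 ± 0.3 (limma adjusted p = 5.4e-06), -4.18 ± 0.32 (limma adjusted p = 6.1e-05) and -4.84 ± 0.33 (limma adjusted p = 3.6e-05). Vwf, the von Willebrand factor gene that also marks platelet-biased stem cells, was at 3.89, 2.45 and 2.33 FPKM in LSK and 16.5, 25.1 and 30.2 FPKM in Lin-. BMC averaged 1.97 FPKM of Ppbp and 10.2 FPKM of Pf4, and the part of the kit in the differences from LSK was not tested. Mmrn1 fell by 0.55 ± 0.17 and turned to 0.30 under TPM. Of 4 mast cell and basophil genes, Prss34 and Mcpt8 were lower in LSK, from 12.4 to 90.9 FPKM and 9.58 to 59.6 FPKM in Lin-.

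The promoters of these red cell and platelet genes were searched for AGATAA, a form of the sequence that GATA factors bind, on both strands, in the 250 bases before and 50 after the start site (RefSeq, GRCm38.p6). It was present in 6 of 19 erythroid promoters found in the table, in 4 of 13 megakaryocyte promoters, in 0 of 10 promoters of the stem cell surface list and in 11.4% of all 27025 promoters. The 200 bases before the start site are shown for the red cell gene Alas2 and the platelet gene Gp5, as examples of the motif in genes of both lines, with the motif in capitals.
Alas2, chrX:150547217-150547416, plus strand: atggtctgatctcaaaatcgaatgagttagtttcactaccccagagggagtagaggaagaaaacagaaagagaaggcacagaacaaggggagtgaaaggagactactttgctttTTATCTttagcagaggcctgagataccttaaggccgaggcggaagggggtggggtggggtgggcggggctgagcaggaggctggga
Gp5, chr16:30310782-30310981, minus strand: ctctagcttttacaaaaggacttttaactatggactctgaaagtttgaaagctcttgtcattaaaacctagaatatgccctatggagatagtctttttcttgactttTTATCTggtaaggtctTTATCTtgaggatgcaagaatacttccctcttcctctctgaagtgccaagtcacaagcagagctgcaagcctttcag
Alas2 holds 1 copy and Gp5 holds 2, in each case read on the opposite strand. A match describes letters in this window and does not show that a factor bound there.

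Genes of cartilage and bone fell strongly. Of 12 described cartilage genes, 11 were lower in LSK and none higher, and of 8 osteoblast and bone matrix genes 7 were lower and 1 higher. Over all genes tested, 25.5% were called lower and 33.4% higher. The medians of the cartilage and bone lists were -4.66 and -6.44 on the log2 scale. The second was -5.99 with Bglap and Bglap2 at the bound set by 3 reads over the LSK group. Col1a1, the main collagen of bone (chr11:94936224-94953042), was at 0.798, 0.275 and 0.314 FPKM in LSK and 1069, 2007 and 498 FPKM in Lin-. Col2a1, the main collagen of cartilage, was at 1.46, 0.12 and 0.343 FPKM in LSK and 674, 695 and 224 FPKM in Lin-. Bglap, osteocalcin, was listed at 0 in all LSK libraries and at 366, 549 and 134 FPKM in Lin-, at least 536-fold higher at that bound, and its reads can be shared with Bglap2. Collagen RNA was thus abundant in every library labelled Lin-, least in Lin- 3. BMC, made with the same kit, averaged 5.39 FPKM of Col1a1 and 1.63 FPKM of Col2a1. The log2 differences were -9.47 ± 0.46 for Col1a1 (limma adjusted p = 9e-06) and -8.26 ± 0.49 for Col2a1 (limma adjusted p = 2e-05). Runx2, the osteoblast factor that blood progenitors also express, was the exception, at 9.44, 9.61 and 12.3 FPKM in LSK and 3.46, 1.95 and 2.88 FPKM in Lin-. Genes such as Col1a1, Col2a1 and Bglap averaged under 5 FPKM in LSK, so they entered through Lin- alone and had to differ. The cartilage gene Chad, with means of 15.8 FPKM in LSK and 21.5 FPKM in Lin-, was not called (limma adjusted p = 0.051).

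Stromal niche genes were lower in LSK in 6 of 8 described members, with none higher and a median log2 difference of -3.66. The shares over all genes tested were 25.5% lower and 33.4% higher. Cxcl12, the ligand of Cxcr4, was at 2.35, 2.65 and 4.03 FPKM in LSK and 111, 38.3 and 180 FPKM in Lin-. Lepr, a receptor that marks marrow stroma, was at 1.55, 1.64 and 0.76 FPKM in LSK and 20.8, 6.1 and 45.2 FPKM in Lin-, and Adipoq, an adipokine, at 0.298 to 1.05 and 10.4 to 58.2 FPKM. In these genes Lin- 3 was the highest and Lin- 2 the lowest of its group, while in the collagen genes Lin- 3 was the lowest. Log2 differences were -4.55 ± 0.52 for Cxcl12 (limma adjusted p = 0.0003) and -3.08 ± 0.62 for Lepr (limma adjusted p = 0.004). Of 7 described endothelial genes, whose median of 0.09 was -0.03 without Lin- 3, Plvap and Fabp4 were lower and Egfl7 higher in LSK. Cdh5, the endothelial cadherin, stayed under the limit, at 0.0906 to 0.329 FPKM in LSK and 3.19 to 10.7 FPKM in Lin-, against 81.5 FPKM in bone EC. The mural gene Rgs5 fell by 3.10 ± 0.29 on the log2 scale, and Igj, the joining chain of plasma cells, by 3.61 ± 0.43. No gene of skeletal muscle averaged 5 FPKM, and of 3 dendritic cell genes that did, 1, the factor Tcf4, was higher in LSK (1.05 ± 0.15).

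**Figure D4:**
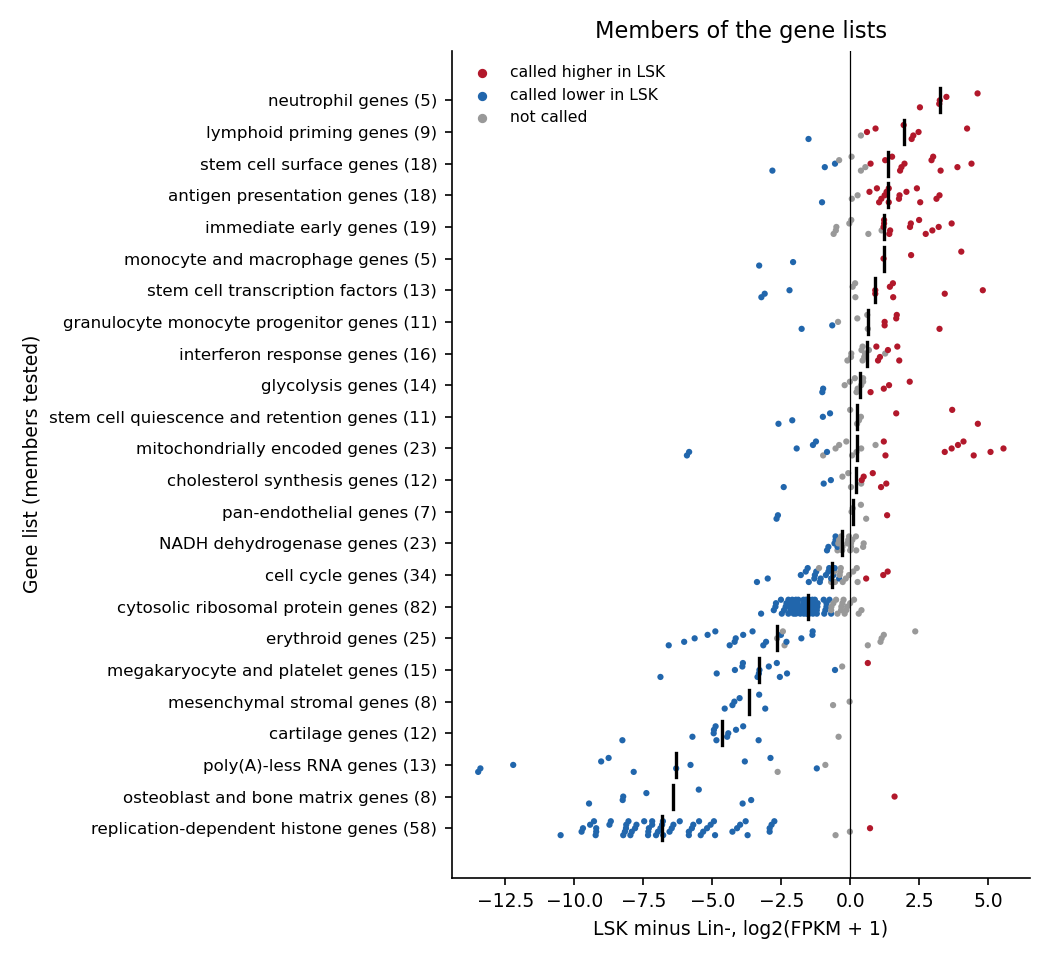
Log2 difference, LSK minus Lin-, of each tested gene of the lists with 5 or more members, on log2(FPKM + 1), red for genes called higher in LSK, blue lower and grey not called, with a black bar at each list's median. Neutrophil, lymphoid priming and stem cell surface genes have the highest medians (3.25, 1.94 and 1.39), and histone, bone matrix and poly(A)-less RNA genes the lowest (-6.81, -6.44 and -6.31). The neutrophil genes passed the limit of a mean of 5 FPKM through LSK alone, and many genes of the lowest lists through Lin- alone. Such genes had to differ.

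Cell cycle genes leaned lower in LSK, with 18 of 34 lower, 3 higher and a median log2 difference of -0.65, but the median was 0.23 under TPM, with 6 lower and 9 higher. On the deposited scale, 25.5% of all genes tested were called lower and 33.4% higher. Mki67, the marker of dividing cells Ki-67, was at 13.5, 17.4 and 12.0 FPKM in LSK and 100, 105 and 363 FPKM in Lin- (log2 difference -3.38 ± 0.48, limma adjusted p = 0.00079). Ccne1, the cyclin of entry into S phase, was at 2.13, 2.31 and 1.86 FPKM in LSK and 20.1, 19.3 and 33.6 FPKM in Lin- (log2 difference -2.99 ± 0.23). Both stayed lower under TPM, at -2.55 and -2.45. Plk1 and Cdc6, which act in mitosis and at replication origins, fell by 1.79 ± 0.22 and 1.61 ± 0.28 on the log2 scale. The 3 that rose, named after their values were seen, were Ccnd2, a D cyclin (1.36 ± 0.21), E2f1 (1.20 ± 0.22) and Cdk2 (0.58 ± 0.14). Without Lin- 3 the counts were 21 lower and 3 higher.

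Replication-dependent histone genes, which cells transcribe in S phase and whose messenger RNAs end in a stem-loop in place of a poly(A) tail, were lower in LSK in 55 of 58 described genes, with 1 higher. The median log2 difference was -6.81, or -6.51 with the 13 genes at 0 in LSK placed at their bound. Summed over the list, the level was 379, 385 and 399 FPKM in LSK, 18795, 24768 and 25012 FPKM in Lin-, 525 to 807 FPKM in bone EC and 16191 to 19535 FPKM in BMC. LSK lay with bone EC and Lin- with BMC, the pairs of groups that share a kit, in all 12 libraries. Hist1h2bm was at 0 in all LSK libraries and at 587, 620 and 898 FPKM in Lin-, at least 663-fold higher. Of the described genes, Hist1h2bc, Hist1h2ap and Hist3h2a alone were not called lower, which was seen from their values. Their means were 30.7, 40.3 and 9.19 FPKM in LSK and 45.2, 40.8 and 5.23 FPKM in Lin-, and Hist3h2a was called higher (0.72 ± 0.24, limma adjusted p = 0.034). The stem-loop was searched in annotated transcripts (GENCODE vM21) as a stem of 6 bases starting GG, a loop of 4 bases starting TT and the reverse complement of the stem, on the sense strand. It was found in 37 of the 58 genes and in 0.334% of 55450 genes, and 14 of the 21 without it had an annotated length that is a multiple of 3, as in models that end with the coding sequence. The median log2 difference was -6.55 with and -7.33 without the stem-loop.

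The stem-loops of 5 genes are printed because they carry the 3′ end that sets these messengers apart, with the stem and loop in capitals and 3 to 5 bases on each side. They include genes that differed strongly (Hist1h2bm, Hist1h4f, Hist1h3b), 1 that fell less (Hist1h1c) and 1 that did not pass the test (Hist1h2ap).
Hist1h2bm: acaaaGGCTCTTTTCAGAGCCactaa
Hist1h4f: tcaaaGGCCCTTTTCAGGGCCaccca
Hist1h3b: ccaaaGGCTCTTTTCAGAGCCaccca
Hist1h1c: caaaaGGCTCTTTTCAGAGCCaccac
Hist1h2ap: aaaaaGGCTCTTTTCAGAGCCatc
The stem and loop of Hist1h2bm, Hist1h3b, Hist1h1c and Hist1h2ap are the same, while that of Hist1h4f differs. Annotated transcripts ran on for 46, 33, 51, 840 and 3 bases after the element, in the order printed. Hist1h1c, a linker histone, was at 48.4, 61.4 and 57.3 FPKM in LSK and 556, 829 and 1029 FPKM in Lin- (log2 difference -3.79 ± 0.25, limma adjusted p = 3e-05). Reads of near-identical histone copies cannot be assigned with certainty.

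Other RNAs without a poly(A) tail followed the same order. Of 13 described genes, 11 were lower in LSK and none higher, with a median log2 difference of -6.31, or -5.79 with 3 genes at their bound. Rn7sk, the RNA that holds back transcription elongation, was at 0, 5.46 and 2.49 FPKM in LSK and 30541, 35624 and 31560 FPKM in Lin-. Rpph1, the RNA of ribonuclease P, had 2 reads in all LSK libraries together and 113497 in Lin-, and Rmrp, the RNA of the related enzyme that processes ribosomal RNA, had 1 and 30635. Rn7sk averaged 47275 FPKM in BMC and 10.7 FPKM in bone EC. Terc, the telomerase RNA, was listed at 0 in LSK and at 56.6 to 116 FPKM in Lin-, at least 85.7-fold higher. All 8 small Cajal body RNAs and 50 of 79 small nucleolar RNAs among the described genes were lower in LSK, and 3 small nucleolar RNAs were higher. Over all genes tested, 25.5% were called lower and 33.4% higher. Those at 0 in all LSK libraries, such as Scarna2 and Scarna9, entered through Lin- alone and had to differ.

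**Figure D5:**
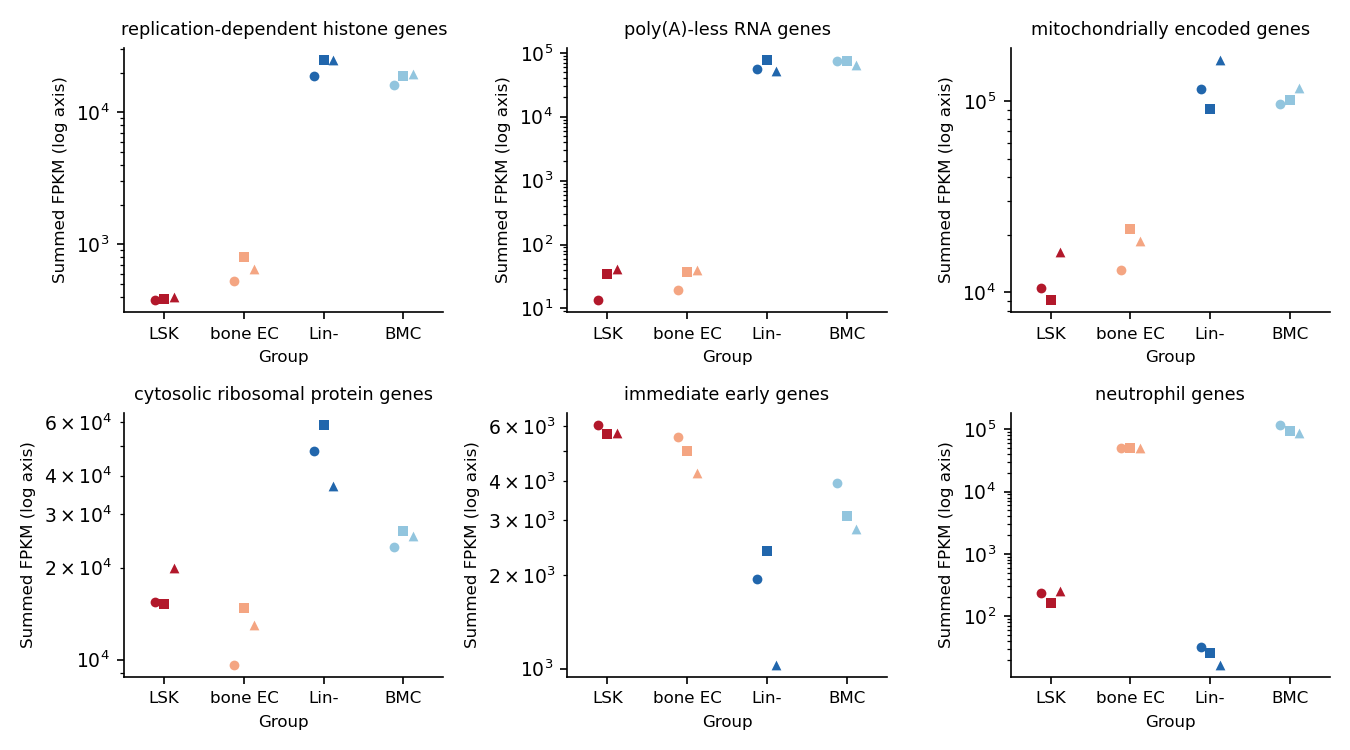
Summed FPKM of 6 gene lists in each library of LSK, bone EC, Lin- and BMC (3 libraries per group, symbols by replicate), on logarithmic axes that do not start at 0. Histone and poly(A)-less RNA sums group LSK with bone EC and Lin- with BMC, the pairs that share a kit, while neutrophil sums are lower in LSK and Lin- than in bone EC and BMC.

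Mitochondrially encoded RNAs moved both ways, with 9 of 23 higher and 6 lower in LSK. Those counts were near the 33.4% and 25.5% called over all genes tested. The median was 0.23, and -0.77 once a trend on length and GC content was taken out. The ribosomal RNA mt-Rnr2 was at 1470, 1163 and 2137 FPKM in LSK and 90141, 72943 and 123032 FPKM in Lin-. By contrast mt-Nd6, the subunit gene on the other strand of the genome, was at 159, 120 and 232 FPKM in LSK and 7.9, 2.0 and 3.32 FPKM in Lin-. The LSK kit does not mark strand, so in LSK reads from the opposite strand can count towards mt-Nd6. Each gene's bone EC mean (3222 and 251 FPKM) was near LSK and each BMC mean (80542 and 2.29 FPKM) near Lin-. The log2 differences were -5.92 ± 0.56 (limma adjusted p = 0.00015) and 5.09 ± 0.42 (limma adjusted p = 7.8e-05). Of the messengers, mt-Co1, a cytochrome oxidase subunit, fell by 1.94 on the log2 scale and mt-Nd5 rose by 1.22, whereas mt-Atp6 and mt-Cytb did not pass the test.

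Cytosolic ribosomal protein genes were lower in LSK in 66 of 82 described members, with none higher and a median log2 difference of -1.53, which was -0.64 under TPM with 35 lower and 6 higher. Rps12 was at 246, 269 and 326 FPKM in LSK and 2642, 3403 and 1993 FPKM in Lin- (log2 difference -3.23 ± 0.27, limma adjusted p = 9e-05). Rpl13a was at 76.4, 72.9 and 87.4 FPKM in LSK and 535, 670 and 379 FPKM in Lin- (log2 difference -2.69 ± 0.23). Summed, the list reached 15249 to 19953 FPKM in LSK, 37101 to 58817 FPKM in Lin-, 9607 to 14754 FPKM in bone EC and 23423 to 26345 FPKM in BMC. Reads of these genes can be split with their many processed pseudogenes. NADH dehydrogenase genes, which encode complex I of the respiratory chain, differed little, with a median of -0.28 that turned to 0.61 under TPM. Of 23, 6 were lower, near the 25.5% over all genes tested, and none higher. Under TPM 11 were higher and none lower, and without Lin- 3 11 were lower and none higher. Ndufs1 had the largest difference, at 20.8, 22.7 and 20.3 FPKM in LSK and 40.9, 38.9 and 36.6 FPKM in Lin- (log2 difference -0.84 ± 0.12), and it too turned under TPM, to 0.03.

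Gene length moved with the difference. Over 7111 protein-coding genes in 4 equal groups by exon length, the median log2 difference was 0.03 in the shortest (up to 2662 bases), -0.04 and -0.15 in the next ones and -0.33 in the longest (6511 bases and more). The share called lower went from 26.7% to 40.7% and the share called higher from 30.4% to 18.7%. GC content moved less with it, with medians of -0.06 to -0.17. Of 3 long nuclear RNAs described, Neat1 was lower in LSK (-0.75, but 0.00 under TPM), and Malat1 and Tug1 did not pass the test. The Y-linked helicase gene Ddx3y was at 25.2, 19.9 and 31.1 FPKM in LSK and 12.3, 9.63 and 13.9 FPKM in Lin-, and Xist, the RNA of the inactive X chromosome, was at 0.0488 to 0.092 FPKM in LSK and 0 to 0.012 FPKM in Lin-.

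Immediate early genes, which cells switch on within minutes of a stimulus or of dissociation from tissue, were higher in LSK in 12 of 19 described members and lower in none, with a median log2 difference of 1.23. Of all genes tested, 33.4% were called higher and 25.5% lower. Nr4a1, an orphan nuclear receptor, was at 1758, 1719 and 1625 FPKM in LSK and 282, 255 and 138 FPKM in Lin-. Nr4a2, its relative, was at 228, 205 and 238 FPKM in LSK and 21.2, 16.2 and 12.9 FPKM in Lin-. Egr1, a zinc finger factor, was at 143, 150 and 133 FPKM in LSK and 32.6, 34.3 and 25.9 FPKM in Lin-. The log2 differences were 2.98 ± 0.3 (limma adjusted p = 0.00018), 3.68 ± 0.19 (limma adjusted p = 1.2e-05) and 2.17 ± 0.15 (limma adjusted p = 3.9e-05). The core AP-1 genes were divided: Fos and Junb rose by 1.45 ± 0.38 and 1.23 ± 0.35 on the log2 scale, while Fosb, Jun and Jund did not pass the test, with differences of -0.03, -0.50 and 0.04. Lin- 3 was the lowest Lin- library for 18 of the 19 genes. Without Lin- 3, 12 genes were higher and 4 lower. The list summed to 5643 to 6069 FPKM in LSK, 1028 to 2379 FPKM in Lin-, 4240 to 5538 FPKM in bone EC and 2809 to 3931 FPKM in BMC.

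Interferon response genes rose in 6 of 16 described members and fell in none, with a median log2 difference of 0.61. This share was near the 33.4% called higher over all genes tested, and under TPM 15 of 16 were higher. Ifitm3, which blocks viral entry, was at 281, 231 and 305 FPKM in LSK and 78.0, 86.8 and 70.9 FPKM in Lin- (log2 difference 1.78 ± 0.17, limma adjusted p = 0.00014). Oasl2, an oligoadenylate synthetase-like gene, was at 13.1, 9.03 and 9.03 FPKM in LSK and 1.93, 2.05 and 3.5 FPKM in Lin- (log2 difference 1.71 ± 0.24). Again Lin- 3 set some results: Rsad2 was at 2.27, 3.59 and 190 FPKM in Lin- and Isg15 at 1.74, 4.79 and 35.9 FPKM. Without that library 11 genes were higher, Rsad2 (1.91 ± 0.25) and Isg15 (2.34 ± 0.35) among them.

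Metabolic lists were mixed. On the deposited scale their counts were not far from the 33.4% called higher and 25.5% lower over all genes tested. Of 14 glycolysis genes, 4 were higher and 2 lower in LSK, with a median log2 difference of 0.34, and under TPM 11 were higher and none lower. Slc2a1, the glucose transporter Glut1, was at 21.6, 27.1 and 31.2 FPKM in LSK and 6.98, 5.57 and 3.4 FPKM in Lin- (log2 difference 2.16 ± 0.25, limma adjusted p = 0.00033), and Pkm, pyruvate kinase, rose by 1.41 ± 0.3. Pgk1 and Hk1 fell by 0.98 ± 0.2 and 1.01 ± 0.15 on the log2 scale. Of 12 cholesterol synthesis genes, 5 were higher and 3 lower, with a median of 0.22, and under TPM 8 were higher and 1 lower. Srebf2, the factor that switches on the pathway's genes, was at 35.3, 37.4 and 38.3 FPKM in LSK and 14.8, 15.5 and 19.6 FPKM in Lin- (log2 difference 1.12 ± 0.15, limma adjusted p = 0.00057), with no overlap. Fdps, farnesyl diphosphate synthase, went the other way, by -0.96 ± 0.23 (limma adjusted p = 0.0093).

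The largest rises among named protein-coding genes included further signalling genes. Cd83, a surface protein of activated immune cells, was at 389, 320 and 561 FPKM in LSK and 9.36, 9.58 and 2.92 FPKM in Lin- (log2 difference 5.77 ± 0.41, limma adjusted p = 4.2e-05). Il1r2, the decoy receptor of interleukin 1, was at 68.9, 63.0 and 57.9 FPKM in LSK and 1.21, 0.129 and 0.645 FPKM in Lin- (log2 difference 5.32 ± 0.25). Ptgs2, the inducible cyclooxygenase, was at 162, 192 and 192 FPKM in LSK and 7.18, 3.08 and 3.44 FPKM in Lin- (log2 difference 5.11 ± 0.27). Cebpb, a factor of stress myelopoiesis, rose by 4.57 ± 0.26, Dusp2, a phosphatase of MAP kinases, by 4.80 ± 0.33, and Wfdc17 by 5.14 ± 0.32 on the log2 scale. These genes were not low in bone EC or BMC, where Cebpb averaged 372 and 158 FPKM. The largest rise of a named messenger was that of Lars2, the mitochondrial leucyl-tRNA synthetase (chr9:123366927-123462666), at 1284, 1031 and 1577 FPKM in LSK and 4.0, 5.2 and 15.8 FPKM in Lin-. Lars2 was at 3752 FPKM in bone EC and 7.48 FPKM in BMC. Further drops were Sparc, a matrix protein (-7.30 ± 0.36), and Mgp, which inhibits calcification (-5.83 ± 0.25), both with means over 100 FPKM in Lin- and under 2 FPKM in LSK.

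Several microRNA genes were among the larger rises. The microRNA gene mmu-mir-6236 was at 650, 696 and 1018 FPKM in LSK and 0, 4.21 and 7.01 FPKM in Lin-. It averaged 1277 FPKM in bone EC and 3.75 FPKM in BMC. Genes mmu-mir-6240, mmu-mir-130c and mmu-mir-6340 had 41, 25 and 31 reads in LSK and none in Lin-, at least 31.1, 18.4 and 23.3-fold higher at a bound of 3 reads over the Lin- group. Their means were 46.0, 28.8 and 48.5 FPKM in bone EC and 0 in BMC. Such levels count reads over a hairpin gene in a library of long RNA, not the mature molecule. Which RNA these reads came from was not tested. The mature sequences (RefSeq, GRCm38.p6) are shown because they name what these genes would yield, with the seed, bases 2 to 8, in capitals.
mmu-miR-6236, chr9:110281353-110281371, plus strand: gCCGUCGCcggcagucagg
mmu-miR-6240, chr5:114851973-114851998, plus strand: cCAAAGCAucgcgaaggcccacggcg
mmu-miR-130c, chr9:53400808-53400829, minus strand: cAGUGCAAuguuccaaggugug
mmu-miR-6340, chr2:173701098-173701120, minus strand: gUCAGCAGcagcuucgcuuuggc
No pair of the 4 shares a seed. Over the described genes, 31 of 45 microRNA genes were higher and 5 lower in LSK, against 33.4% and 25.5% of all genes tested. Those at 0 in Lin-, among them mmu-mir-6240, entered through LSK alone and had to differ.

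Predicted and antisense genes moved the same way. Of 133 genes annotated as antisense, 125 were higher in LSK and 4 lower, with a median log2 difference of 3.59, and of 66 lincRNA genes 46 were higher and 9 lower. Over all genes tested, 33.4% were higher and 25.5% lower. Genes of these kinds could enter through LSK alone, and such genes had to differ, so the counts follow in part from the limit of 5 FPKM. Without strand, reads of an antisense gene and its partner cannot be told apart, and the LSK kit does not mark strand. The 3 largest rises of all, outside the rule for named genes and picked after their values were seen, were in predicted genes. Gm10800 was at 8067, 7526 and 5280 FPKM in LSK, 0.262 to 1.33 FPKM in Lin- and 43.8 FPKM in bone EC. Gm26870 was at 1776, 1668 and 1312 FPKM in LSK and 0.192 to 0.721 FPKM in Lin-, and Gm21738 at 728, 670 and 536 FPKM in LSK and 0 in Lin-. For each of them bone EC, of the same kit, was far below LSK (7.55 FPKM of Gm26870 and 2.6 FPKM of Gm21738), and the cause of these levels was not tested. Of the chemosensory receptor genes Vmn1r58 and Olfr613 averaged 5 FPKM or more, at 36.7 to 59.7 FPKM and 14.1 to 26.8 FPKM in LSK and 1.03 to 2.73 FPKM and 0.37 to 2.43 FPKM in Lin-.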

How the data were processed

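RNA-seq libraries of 3 LSK and 3 Lin- samples were compared from 1 table of FPKM values that the authors deposited. Per the submitters' processing notes, the tools were HTSeq (0.6.1), TopHat2 (2.1.1), bcl2fastq (2.19.1.403) and DESeq2 (1.18.1), with the build mm10, and neither role nor order is given. The deposited FPKM values were whole multiples of what 1 read is worth in 100% of cases (tolerance 0.005), so reads per gene were recovered for a count-based alternative. Of 38926 names, 27 altered to dates were left out.

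Genes at 1 FPKM or more in at least 3 of the 6 libraries were tested on log2(FPKM + 1) with limma 3.58.1 in R 4.3.3 (variance trend on the mean), and p-values were Benjamini-Hochberg adjusted over all 13875 genes. Fold changes on this scale understate low genes. A call is an adjusted p below 0.05. The procedure was tested on simulated data. Positions and transcripts come from GENCODE vM21 (GRCm38), matched by symbol for 37307 names. Shown with their values are the 15 largest differences in each direction outside predicted, immunoglobulin, T cell receptor and some RNA genes, up to 4 called members of each list, and a fixed set of progenitor genes. Further genes, named from lists of more than 20, were picked with their values in view. A few genes are not reported here. The genes and lists were chosen with earlier results of these data known. Alternatives changed the pseudocount, filter, scaling, variance model, replicate block, libraries in the fit and test, and scaling to recovered reads and removal of a length and GC trend were added after seeing the data. Depth of 1550705 to 6403499 recovered reads per library limits low genes.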

Additional observations from a re-analysis of the deposited data

How the results depend on the processing

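Counts of calls moved with the scaling and with the filter, and the cause was not tested except that fewer or more genes were tested under a filter. Among the described genes, 2111 higher and 2560 lower calls became 4290 and 869 under TPM and 3347 and 1266 when scaled to recovered reads, and 1243 were higher where both group means had to reach 5 FPKM. Over all genes, 4638 higher and 3537 lower calls became 7976 and 1329 under TPM, with 1857 lower when scaled to recovered reads. Higher calls over all genes numbered 7497 with no filter, 2104 with a mean of 5 FPKM and 1243 with that mean in each group, where 1708 were lower. Leaving out 1 library at a time gave 1778 to 2280 higher and 2085 to 2897 lower described genes, and 4187 to 4813 and 2946 to 3865 over all genes. Same-numbered libraries did not deviate together from their group means (r of -0.101, -0.026 and -0.037). With means of only 3 libraries and a different kit in each group, this cannot exclude that same-numbered libraries share a source. With the replicate block, 1938 described genes were higher and 2350 lower, and 4340 and 3257 of all genes. Among the genes picked by the naming rule, differences that turned sign were Xbp1 (0.72 under TPM, 0.37 by recovered reads), Ndufs1 (0.03), Ndufa10 (0.09), Ndufv1 (0.31) and Ndufv2 (0.35, and 0.00 by recovered reads), Neat1 (0.00) and Malat1 (0.03) under TPM, and Tug1 (-0.03) and Eif2s3y (-0.54) without the length and GC trend. Leaving out 1 library moved Tug1 between -0.15 and 0.37, Eif2s3y between -0.04 and 0.27 and Mpo between -0.13 and 1.20. The LSK libraries, with 1550705 to 1874374 recovered reads, set the limit for low genes, so a level of 0 there is not an absence.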
